A study of Carassius carassius with 6 samples.

Results

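A set of 170 genes differed strongly in level between single brain libraries of juvenile crucian carp (Carassius carassius), and some came near on-off. At least 1 library was at 0 in 37 genes, and every low library was at 0 in 6 genes. A single library at 0 does not by itself make a gene on-off. The genes outside the 37 were lower in some libraries without reaching 0. RNA was sequenced in 3 libraries of an unexposed control group and in 3 libraries of a group exposed to 0.6 µg/L deltamethrin over 28 days. Both groups were labelled wild type, and the tissue of all 6 libraries was labelled brain. Deltamethrin is a pyrethroid insecticide that acts on the voltage-gated sodium channels of nerve cells. The labels do not state how many fish went into a library, so differences between libraries may be biological or in part technical.

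Members were picked from the expression values themselves. The level of a gene was given as FPKM (fragments per kilobase of gene and per 1000000 counted fragments). The 6 values of each gene were sorted. A member had a second-highest value of at least 2 FPKM and a second-lowest value of at most 25% of the second-highest. Genes in which all 3 exposed values lay above, or all 3 lay below, all 3 control values were left out. Of 41199 listed genes, 23218 reached the level limit, and 170 of these (0.732%) were members. Another 21 genes passed both limits and were left out because the groups separated. The rule used all 6 values of every gene and the contrast between the groups, so the levels are described here and not tested.

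Bulk brain RNA holds transcripts of neurons, glia, vessels and blood, and of adjoining tissue such as the pituitary where a dissection includes it. In bulk RNA, fewer cells of a type and less RNA per cell cannot be told apart. Carp and goldfish descend from an ancestor with a duplicated genome, so many of their genes have a close copy elsewhere in the genome. The table lists Ensembl-style identifiers and does not pair them with gene names. The gene table of the species' reference assembly holds 70659 genes, of which 0 carry an Ensembl identifier. The annotation that the identifiers come from was not used here, so members are given no name or function, and the brain label was not checked against marker genes. For that reason 4 members are given by identifier and the others by their values alone.

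The depth behind the values was recovered from the FPKM steps. Library totals ran from 20284797 to 22279901 fragments. For all genes at the level limit this gave counts within 0.001 of whole fragments in every library. A factor shared by a gene's length and its counts stays hidden, so either may be too low by it. The second-highest value of a member rested on a median of 74.5 fragments, with a range of 5 to 12332. It rested on 100 or more fragments in 67 members and on fewer than 20 in 18 members. The fragments carry no molecular identifiers, so counting error is the least error they can have.

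**Figure D1:**
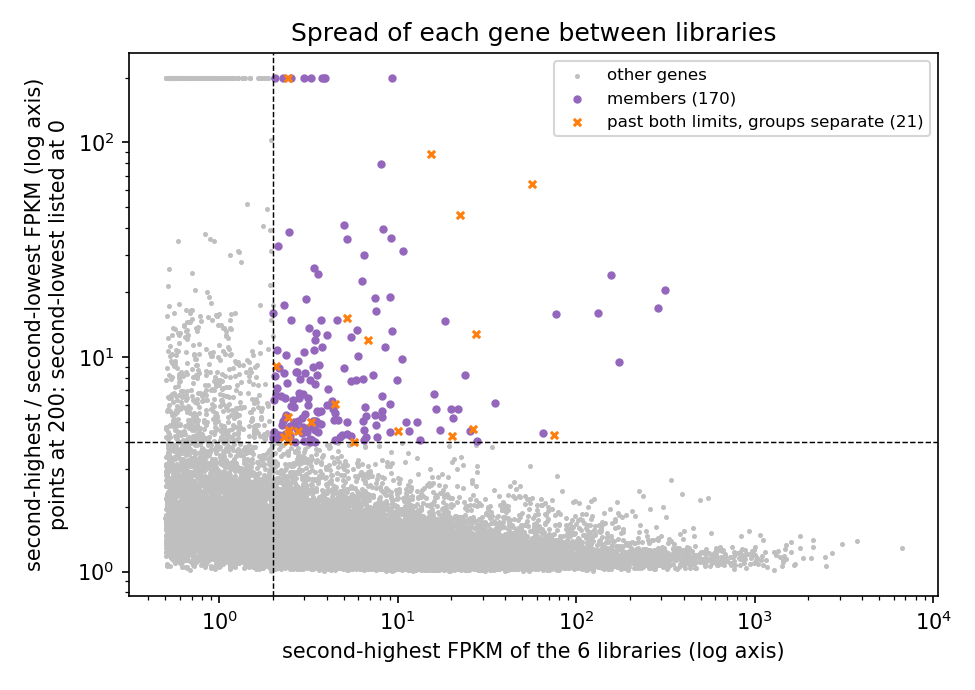
Each point is 1 gene, with its second-highest FPKM of the 6 libraries on the horizontal log axis and the ratio of its second-highest to its second-lowest FPKM on the vertical log axis; dashed lines mark 2 FPKM and a ratio of 4. The 170 members (purple) lie in the upper right field, the 21 genes whose groups separate are crosses, and most other genes lie near a ratio of 1.

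Members stood at low to moderate levels in their high libraries, and their low libraries were not always near 0. Their second-highest value had a median of 3.60 FPKM and ran from 2.01 to 315 FPKM, against a median of 9.65 FPKM in the other genes at the level limit. It lay between 2 and 5 FPKM in 107 members, between 5 and 20 FPKM in 49, and at 20 FPKM or more in 14. The second-lowest value had a median of 0.561 FPKM, was under 1 FPKM in 126 members and reached 18.4 FPKM. The share of genes that were members fell with level, from 1.71% of the genes at 2 to 5 FPKM to 0.449% at 5 to 20 FPKM and 0.232% at 20 FPKM or more. In the other 23027 genes at the level limit, the second-highest value was a median of 1.22 times the second-lowest, and 95% of these genes lay at or below 1.86 times. At the limits themselves there was no gap. The 4 members nearest the ratio limit had ratios of 4.01 to 4.04, and the nearest 4 genes outside had 3.955 to 3.988. The 4 members nearest the level limit had 2.008 to 2.03 FPKM, and the nearest 4 genes outside had 1.992 to 1.995 FPKM.

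Gene length was not part of the rule. The median recovered length was 736 bases in members and 2020 bases in the other genes at the level limit. Under 500 bases were 27.6% of the members and 4.8% of the other genes. A short gene collects fewer fragments at the same FPKM, and in control replicate 3 levels also moved with length. Its log2 level relative to the average library had a median of 0.11 over the 20% of genes that are shortest and of -0.11 over the longest 20%. In the other libraries both medians lay between -0.07 and 0.05. The part of length in the choice of members was not tested.

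The step from low to high varied in size. The ratio of the second-highest to the second-lowest value was 4 to 8 in 105 members, 8 to 16 in 36 and 16 or more in 20. In the remaining 9 members the second-lowest value was 0. Each member was also cut at its largest step between neighbouring values, on log2(FPKM + 0.1), with 2 to 4 libraries on the high side. This step had a median of 2.79-fold. It was 4-fold or more in 43 members, 2-fold to 4-fold in 105 and under 2-fold in 22. With these cuts and 0.1 FPKM added, a gap of 4-fold was thus seen in the smaller part of the members. Gaps that set apart only the highest or only the lowest value were not counted.

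For the patterns, a library was called high for a gene at 50% or more of the second-highest value, low at 25% or less of it, and between otherwise. No library was between in 64 members, 1 library was between in 81, and 2 were between in 25. Among the 64 members with every library called, 34 had 4 high libraries, 17 had 3 and 13 had 2.

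Control replicate 2 and deltamethrin replicate 1 were the libraries in which members were most often low. Control replicate 2 was low in 109 of the 170 members and high in 44. Deltamethrin replicate 1 was low in 85 and high in 71. At the other end, deltamethrin replicate 2 was low in 29 members and high in 105, and control replicate 1 was low in 43 and high in 104. Control replicate 3 was low in 60 and high in 89, and deltamethrin replicate 3 was low in 74 and high in 76. Each group therefore held a library with few low members and a library with many. The members together took 0.214%, 0.0368% and 0.0985% of the listed fragments in the control libraries (replicates 1, 2 and 3), and 0.0836%, 0.186% and 0.115% in the exposed ones.

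**Figure D2:**
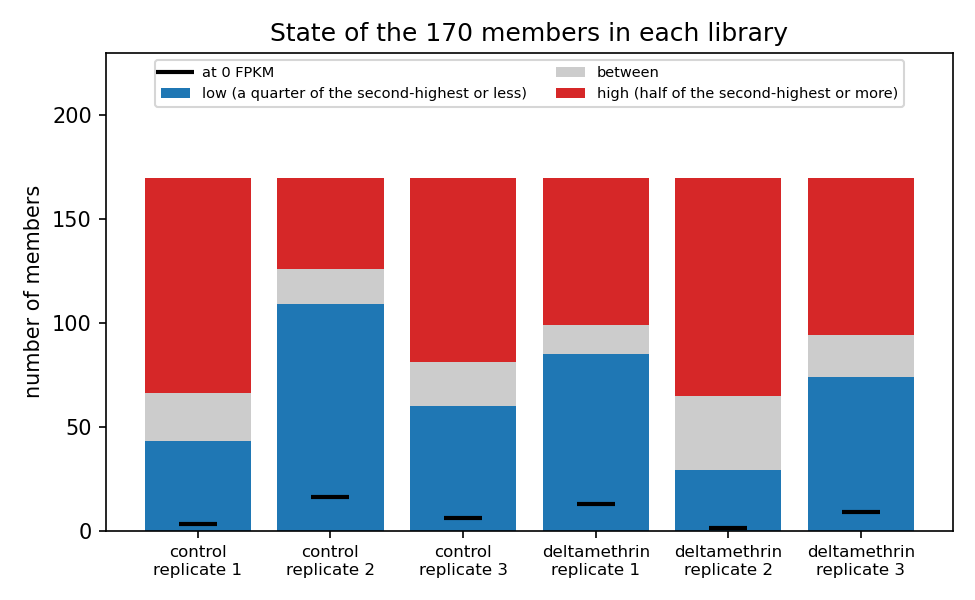
Stacked bars count the 170 members that were low (blue), between (grey) or high (red) in each of the 6 libraries, and black marks count the members listed at 0 FPKM. The blue part is tallest in control replicate 2 (109 members) and deltamethrin replicate 1 (85 members), and shortest in deltamethrin replicate 2 (29 members).

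A value of 0 was reached in at least 1 library by 37 members. Over all 23218 genes at the level limit, 52 (0.224%) had a library at 0. The remaining 15 were 3 of the 21 left-out genes and 12 of the 23027 others. Since the rule asks for low values, this count describes the members and supports nothing further. Of the 37 members, 28 were at 0 in 1 library, 7 in 2 libraries and 2 in 3 libraries. Zeros fell in control libraries alone in 14 members, in exposed libraries alone in 16 and in both groups in 7. By library, 16 members were at 0 in control replicate 2, 13 in deltamethrin replicate 1, 9 in deltamethrin replicate 3, 6 in control replicate 3, 3 in control replicate 1 and 1 in deltamethrin replicate 2. In 6 members every low library was at 0. A count of 0 allows up to 3 fragments, which for a gene of the median member length is 0.183 to 0.201 FPKM depending on the library.

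All 9 members with 2 or more libraries at 0 were at 0 in control replicate 2. The highest of them was at 9.95, 0 and 6.78 FPKM in control replicates 1, 2 and 3, and at 0, 3.11 and 9.27 FPKM in deltamethrin replicates 1, 2 and 3. Its fragments were 193, 0 and 127 in control and 0, 64 and 183 in exposed libraries. One library of each group thus held none, and the other 4 held 64 or more. The next was at 1.89, 0 and 3.92 FPKM in control and 0, 1.17 and 4.81 FPKM in exposed libraries, on up to 75 fragments. It was at 0 in the same pair of libraries. A further member at 0 in that pair reached 17.6 FPKM in control replicate 3 and 1.90, 3.86 and 3.73 FPKM in control replicate 1 and deltamethrin replicates 2 and 3.

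Some of the other members at 0 in several libraries had other sets. One was at 4.95, 0 and 0 FPKM in control and at 3.27, 0.111 and 0 FPKM in exposed libraries, so it was high in replicate 1 of both groups. Another was at 0, 0 and 0.620 FPKM in control and 3.77, 0.282 and 3.90 FPKM in exposed libraries, where deltamethrin replicate 2 was as low as the controls. A short gene of 114 bases was again at 0 in the pair of control replicate 2 and deltamethrin replicate 1. It had no more than 5 fragments in any library, so its levels rest on very few fragments.

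The most frequent pattern was low in control replicate 2 and deltamethrin replicate 1 and high in the other 4 libraries. It was shown by 15 of the 64 members with every library called (23.4%), and by 27 of all 170 members (15.9%) cut at their largest step. Across the 15 members, control replicate 2 stood at a median of 12.2% of the second-highest value and deltamethrin replicate 1 at 4.38%. Medians in the 4 high libraries ran from 86.6% to 104%. The reverse pattern, high in that pair alone, was shown by 0 of the 64 members and by 6 of the 170 cut at their largest step. The highest of the 15 was at 183, 4.97 and 248 FPKM in control replicates 1, 2 and 3 and at 17.0, 287 and 534 FPKM in deltamethrin replicates 1, 2 and 3. Its low values rested on 66 and 219 fragments and its high values on 2371 to 7057.

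The next pattern was low in replicate 1 of both groups and high in the other 4 libraries, with 8 of the 64 members and 17 of the 170. In these 8 members deltamethrin replicate 1 was at a median of 0.428% of the second-highest value and at 0 in 4 of them, and control replicate 1 was at a median of 18.9%. The highest of the 8 was at 3.91, 17.97 and 20.3 FPKM in control and at 0.174, 11.3 and 56.2 FPKM in exposed libraries. Its value in deltamethrin replicate 1 rested on 3 fragments, against 209 to 996 in the 4 high libraries.

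Other frequent patterns again took libraries from both groups. Control replicate 1 with deltamethrin replicates 1 and 2 was the high set of 6 of the 64 members and 12 of the 170. The highest of those 6 was at 122, 0.759 and 14.6 FPKM in control and 53.0, 76.7 and 4.85 FPKM in exposed libraries. Low levels in control replicate 2 and deltamethrin replicate 3, with the other 4 libraries high, were shown by 4 of the 64 and 12 of the 170. The highest of those 4 was at 7.73, 0 and 5.06 FPKM in control and 4.51, 7.48 and 1.40 FPKM in exposed libraries. Its fragments numbered 39 or fewer in every library.

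One frequent pattern was low in all 3 exposed libraries. Control replicates 1 and 3 were the high pair in 4 of the 64 members and 7 of the 170. The highest of those 4 was at 6.67, 0.443 and 5.03 FPKM in control and 0.718, 0.122 and 0 FPKM in exposed libraries. All its exposed values were low, but control replicate 2 was as low as they were. Over the 64 members, 54 had a high and a low library in each group, which the rule itself favours. All 3 control libraries were low in 4 and high in 1, and all 3 exposed libraries were low in 4 and high in 1. The other patterns described here were mixed in both groups. Control replicate 1 and deltamethrin replicate 2 were the high pair in 3 of the 64, the highest at 7.71, 0.698 and 0.888 FPKM in control and 0.216, 6.47 and 0.0702 FPKM in exposed libraries. Another 8 sets had 2 members each among the 64, and 2 of these sets are described, taken by alphabetical order of their library calls. One was low in replicate 3 of both groups, with a highest member at 3.35, 5.51 and 0.714 FPKM in control and 12.4, 4.28 and 0.400 FPKM in exposed libraries. The other was high in control replicates 1 and 3 and deltamethrin replicate 3, with a highest member at 7.79, 0.816 and 3.60 FPKM in control and 0, 1.44 and 6.42 FPKM in exposed libraries.

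**Figure D3:**
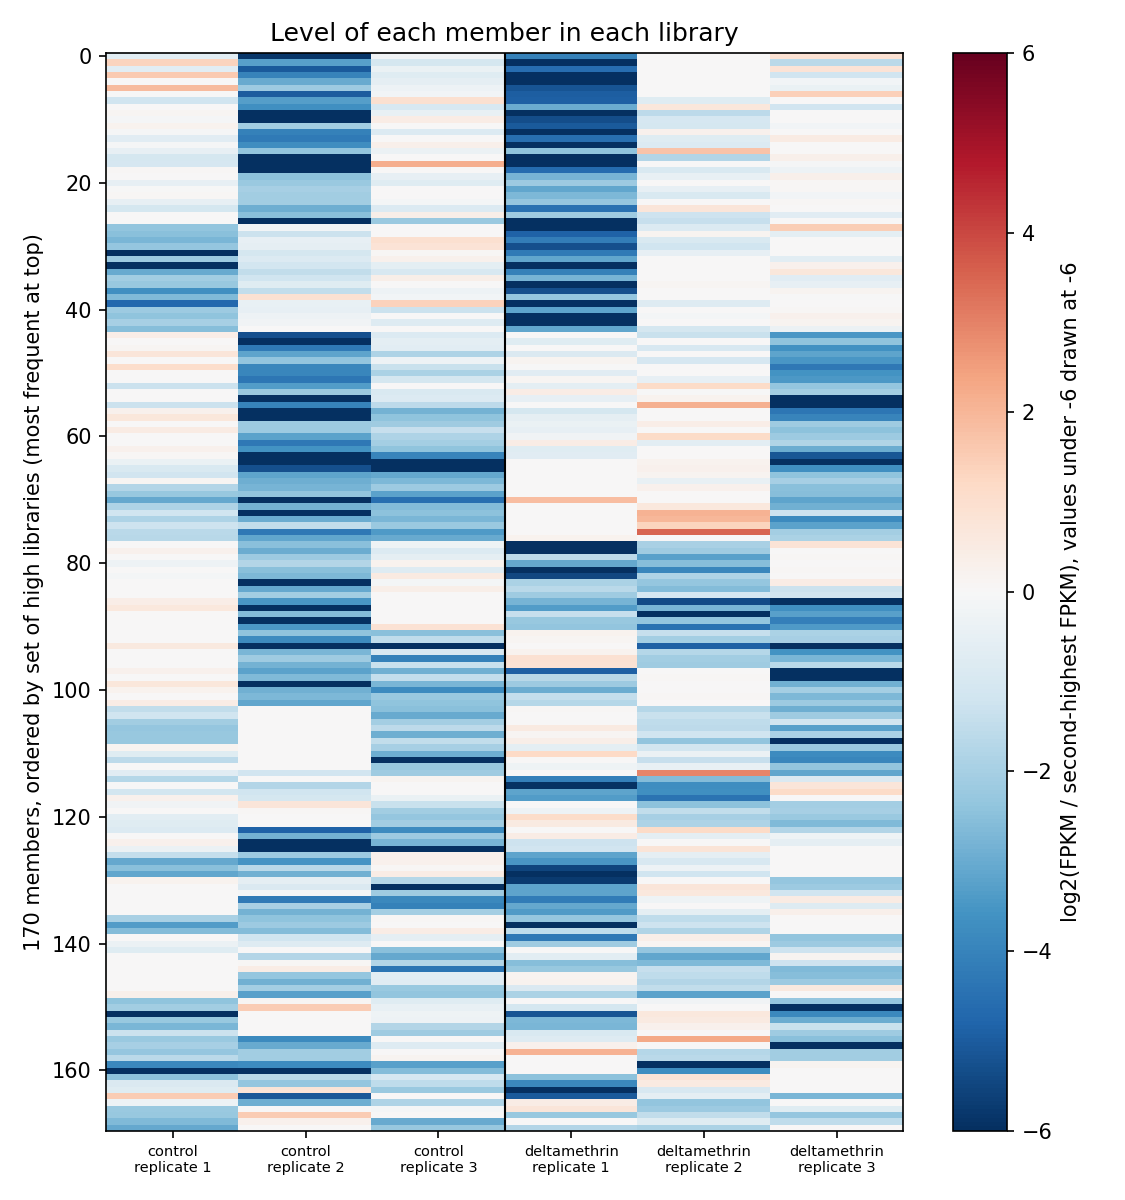
Each row is 1 of the 170 members and each column 1 library; colour gives the log2 ratio of the FPKM to the second-highest FPKM of that member, with values under -6 drawn at -6. Rows are ordered by the set of high libraries, most frequent at the top, where the 27 members low in control replicate 2 and deltamethrin replicate 1 form the first block.

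Patterns differed within both groups in most members, which the rule itself favours. In 125 of the 170 members each group held both a high and a low library. Control alone was split in this way in 21 members and the exposed group alone in 21. Neither was split in 3. Of the 48 sets of 2, 3 or 4 high libraries that do not separate the groups, 22 occurred among the 64 members with every library called and 37 among the 170 cut at their largest step. Among the 64, 37 members had as many high libraries in one group as in the other, 11 had more in control and 16 had more in the exposed group. Cut at their largest step, 95 of 170 were balanced, 35 had more high libraries in control and 40 had more in the exposed group. A member with 3 high libraries cannot be balanced, and such members were 17 of the 64 and 41 of the 170. The rule leaves out the sets that follow exposure fully, and it leaves at least 2 libraries high and 2 low in every member. Most of the 48 sets it allows are therefore mixed in both groups. These counts describe the members, and whether patterns follow exposure was not tested.

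The 21 left-out genes show what the rule removed. They were 11.0% of the 191 genes past both limits, and 10.2% of all 23218 genes at the level limit had groups that did not overlap. The exposed group was the higher one in 17 of the 21 and the lower one in 4. The same split over all genes whose groups did not overlap is not given here, so no direction is read from it. In none of the 21 were all 3 libraries of one group high and all 3 of the other low by the calls used here. In 7 of them deltamethrin replicates 1 and 2 were high and the other 4 libraries low. Deltamethrin replicate 3 lay above every control in each of the 7, by amounts that differed. In 1 of them it was at 3.10 FPKM, against 0.486, 0.237 and 0.755 FPKM in control. The highest of the 7 was at 1.67, 0.880 and 0.700 FPKM in control and 56.4, 86.7 and 1.70 FPKM in exposed libraries.

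The same set, high in deltamethrin replicates 1 and 2 alone, was found in 2 of the 64 members and in 9 of the 170 cut at their largest step. In these 9, deltamethrin replicate 1 ran from 2.37 to 22.6 FPKM and deltamethrin replicate 2 from 2.07 to 33.8 FPKM. The cut needs at least 2 high libraries, so a gene far higher in 1 library than in all others also falls into a pair. The member at 33.8 FPKM in deltamethrin replicate 2 was at 3.0 FPKM in deltamethrin replicate 1. Deltamethrin replicate 3 was between 0.232 and 3.83 FPKM, and control replicates 1, 2 and 3 reached up to 6.52, 3.19 and 4.78 FPKM. The rule itself parts them from the 7 left-out genes, by whether deltamethrin replicate 3 lay above every control. The margin could be small on either side. In 1 of the 9 deltamethrin replicate 3 was at 1.53 FPKM, against 1.55 FPKM in control replicate 1. In 1 of the 7 it was at 0.458 FPKM, against 0.456 FPKM in control replicate 2.

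Libraries were compared in pairs over the members in which both were called high or low. Control replicate 3 and deltamethrin replicate 3 were most often in the same state, in 93 of 134 members (69.4%), both high in 58 and both low in 35. Control replicate 1 and deltamethrin replicate 2 followed with 66 of 117 (56.4%), both high in 62, both low in 4 and opposite in 51. Both libraries were mostly high. Control replicate 1 was high in 104 members and low in 43, and deltamethrin replicate 2 was high in 105 and low in 29. Libraries that are mostly high share a state often by that alone, so this share does not show that they go together. No share was compared with the one expected from how often each library was high. The pairs most often in opposite states were deltamethrin replicates 1 and 3 (opposite in 114 of 137), control replicates 1 and 2 (106 of 132) and control replicate 3 with deltamethrin replicate 1 (109 of 136). Of these 3, the first pair lies within the exposed group, the second within control and the last between groups. Control replicate 2 and deltamethrin replicate 1 were both low in 48 members, both high in 19 and opposite in 72.

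Same states were counted in 34.8% of within-group comparisons (267 of 768) and in 46.7% of between-group comparisons (538 of 1152). With the 21 left-out genes put back the shares were 39.7% and 43.7%. The rule removes genes in which libraries of a group agree, so the first difference is in part its own product and neither was tested.

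**Figure D4:**
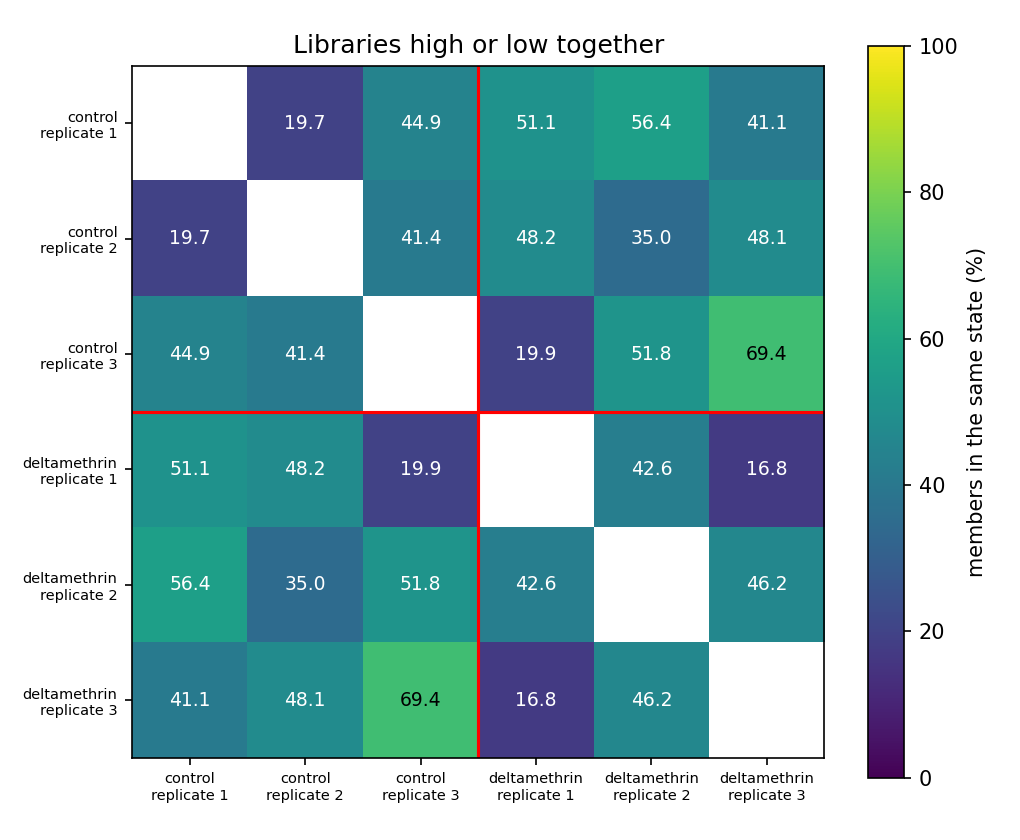
Each cell gives the percent of members in which the 2 libraries of its row and column were in the same state, among members where both were called high or low; red lines part control from deltamethrin libraries. The highest cell is control replicate 3 with deltamethrin replicate 3 (69.4%), and the lowest is deltamethrin replicate 1 with deltamethrin replicate 3 (16.8%).

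The 14 members at 20 FPKM or more had the highest levels, but not always the most fragments, since fragments also depend on gene length. The second-highest value rested on 215 fragments in 1 of the 14, and on 805 in a longer member at 17.3 FPKM. Among them control replicate 2 was low in 11 and deltamethrin replicate 1 in 9. One of these 2 libraries held the lowest value in 13 of the 14, control replicate 2 in 6 and deltamethrin replicate 1 in 7. The highest value was in control replicate 1 in 6, deltamethrin replicate 3 in 4, and control replicate 3 and deltamethrin replicate 2 in 2 each. The 14 genes took 0.154%, 0.0109% and 0.0519% of the listed fragments in the control libraries and 0.0408%, 0.124% and 0.0744% in the exposed ones, in replicate order.

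The highest member was at 378, 3.04 and 44.5 FPKM in control and at 149, 315 and 15.4 FPKM in exposed libraries. The ranges of the groups overlapped. A second member of the 14, described above at 122, 0.759 and 14.6 FPKM in control, ran in parallel with it. The ratio of the first to the second, with 0.1 FPKM added to each, was 3.10, 3.66 and 3.04 in control and 2.82, 4.10 and 3.12 in exposed libraries. A further member at much lower levels had the same order of libraries, with 5.52, 0.0134 and 0.341 FPKM in control and 3.23, 5.23 and 0.148 FPKM in exposed libraries.

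Further members of the 14 had similar orders of libraries in pairs, with ratios that varied more. The member at 183, 4.97 and 248 FPKM in control was matched by one at 101, 4.75 and 117 FPKM in control and 6.49, 156 and 280 FPKM in exposed libraries. Their ratio lay between 1.04 in control replicate 2 and 2.60 in deltamethrin replicate 1. The recovered lengths of this pair were 618 and 636 bases. Another pair was highest in control replicate 1, at 439 and 392 FPKM, and lowest in deltamethrin replicate 1, at 0.525 and 1.14 FPKM, with recovered lengths of 549 and 545 bases. Their ratio was less steady, from 0.50 in deltamethrin replicate 1 to 2.21 in control replicate 2. These pairs were picked after their values were seen. Whether they are close copies that share reads was not analysed here.

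**Figure D5:**
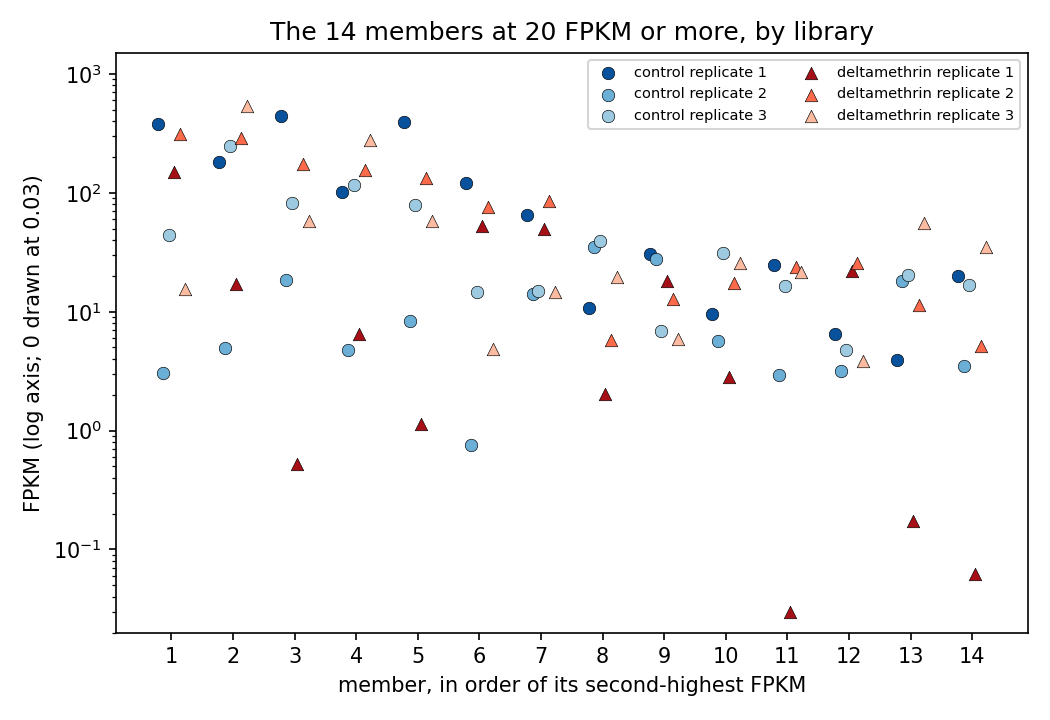
FPKM on a log axis in each of the 6 libraries (circles control, triangles deltamethrin) for the 14 members with a second-highest value of 20 FPKM or more, in order of that value; a value of 0 is drawn at 0.03. Control replicate 2 or deltamethrin replicate 1 is the lowest point in 13 of the 14.

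Parallel levels were then counted over all members. Of 14365 pairs of members, 31 kept their ratio (with 0.1 FPKM added) within a 2-fold span over the 6 libraries. They joined 42 members into 14 linked sets, the largest of 7 members. In 1 of the 31 pairs both members were at 20 FPKM or more. The limit of the span was set after the values were seen, and members with a shared pattern are closer to each other by the way they were chosen.

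Against exposure, the members' group means differed in both directions. The mean of log2(FPKM + 1) was higher in exposed libraries in 92 members and lower in 78, and 52.3% of the 25688 genes tested were higher. The median difference (deltamethrin minus control) was 0.06 in members and 0.01 in all genes tested. Single members ran from -1.84 to 2.32. A difference of 1 or more on the log2 scale was found in 26 of the 170 members, 16 upward and 10 downward. Of all 25688 genes tested, 152 (0.592%) had such a difference in either direction. The median standard error was 0.60 in members and 0.17 in all genes tested. The rule asks for a wide spread between libraries and leaves out genes whose groups separate. Larger differences and larger errors in members therefore follow in part from how they were chosen.

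In limma's test over all 25688 genes with a mean of at least 1 FPKM, 0 genes (0%) had an adjusted p under 0.05 and 1103 (4.29%) had an unadjusted p under 0.05. Of the 170 members, 168 were in that test, and 0 had an adjusted p under 0.05 (limma, Benjamini-Hochberg); the smallest was 0.994. Of the 168, 12 (7.14%) had an unadjusted p under 0.05. The rule used this contrast, so nothing is read from the members' count. Leaving out deltamethrin replicate 2 gave 1 gene in the whole table at an adjusted p under 0.05, and leaving out deltamethrin replicate 3 gave 4.

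The largest positive differences were in members high in deltamethrin replicates 1 and 2. ENSCARG00000029718 was at 0.742, 0.0581 and 0.277 FPKM in control replicates 1, 2 and 3 and at 22.6, 6.28 and 0.700 FPKM in deltamethrin replicates 1, 2 and 3. Deltamethrin replicate 3 lay within the range of the controls. Group means were 0.359 ± 0.350 FPKM (SD, n = 3) without and 9.87 ± 11.4 FPKM (SD, n = 3) with exposure, a log2 difference of 2.32. ENSCARG00000028517 was at 0.978, 0.153 and 0.284 FPKM in control and 3.0, 33.8 and 0.730 FPKM in exposed libraries, a log2 difference of 2.12. Its exposed values differed widely among themselves, and without deltamethrin replicate 2 the difference was 0.88. ENSCARG00000029718 fell to 1.40 without deltamethrin replicate 1.

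Of the members with the largest negative differences, ENSCARG00000022659 changed sign with 1 library left out. It was at 439, 18.4 and 82.9 FPKM in control and at 0.525, 175 and 57.4 FPKM in exposed libraries. Deltamethrin replicates 2 and 3 lay inside the control range, and deltamethrin replicate 1 was far below it, on 6 fragments. The log2 difference was -1.84 with all libraries, 0.18 without deltamethrin replicate 1 and -0.69 without control replicate 1. ENSCARG00000020110 was at 10.7, 35.2 and 39.6 FPKM in control and 2.05, 5.75 and 19.4 FPKM in exposed libraries. Deltamethrin replicate 3 lay between the controls, and deltamethrin replicates 1 and 2 lay below all 3 controls. The log2 difference was -1.78 and stayed between -2.51 and -1.14 with single libraries left out.

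Some genes stood far apart in 1 library. A level of 2 FPKM or more that exceeded all other libraries at least 4-fold was found for 177 genes in deltamethrin replicate 2, of which 6 were members. Among genes that were not members there were 171 in that library and 4 to 11 in each of the others. In the reverse case, at least 4-fold below the other 5 libraries with those at 2 FPKM or more, there were 18 genes in control replicate 2, of which 2 were members, and 18 in deltamethrin replicate 1, of which 8 were members. Among genes that were not members this left 16 and 10 in those libraries and 1 or 2 in each of the others. How far a member's pattern follows the state of a whole library was not tested.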

How the data were processed

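The authors deposited 1 table of FPKM values for 41199 genes, with 1 column per library, matched to samples by the names in the sample descriptions. Extraction was with TRIzol and library preparation with a VAHTS kit, per the labels' protocols; the submitters' processing notes name CASAVA. Aligner, counter, build, annotation and strandedness: not given in the sources used here. Genes that share reads with a near-identical copy are therefore uncertain. Members and settings were chosen with earlier results of these data known. Fragments and lengths were recovered as the smallest whole numbers that give the FPKM values; listed genes held 99.6% of each library total. Groups were tested in R 4.3.3 with limma 3.58.1, trend option on, using log2(FPKM + 1) and the group term alone, over genes with a mean of at least 1 FPKM, two-sided, Benjamini-Hochberg adjustment at 0.05; a fold change on this scale understates low genes. The test was tried on simulated data with a much smaller spread within groups than the members show. That trial does not tell how the test performs on genes like the members. Named members were, by rule, the 2 largest differences in each direction (by identifier), the highest member of each of the 8 most frequent patterns and the 2 highest with 2 or more zeros; others were chosen after their values were seen. Alternatives were other limits, scalings, a pseudocount of 0.1, filters, a replicate block and each library left out. Python 3.11.15 was used for the rest.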

Additional observations from a re-analysis of the deposited data

How the results depend on the processing

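The number of members follows the limits of the rule: 374 with a second-highest value of at least 1 FPKM, 63 with 5 FPKM, 913 with a ratio limit of 2 and 65 with a ratio limit of 8, in place of 170. Members reaching 0 numbered 122, 8 and 24 with limits of 1 FPKM, 5 FPKM and a ratio of 8, in place of 37. Median-of-ratios scaling gave 173 members (168 shared with the 170) and quantile normalization 165 (149 shared). With each library left out in turn, members numbered 61 to 105 and those reaching 0 numbered 12 to 23, as 5 values leave less room for the rule. The within-group minus between-group share of same states was -11.94 percentage points, -3.99 with the left-out genes kept and -22.47 to -15.68 with single libraries left out. In limma, genes at an adjusted p under 0.05 were 0 to 4 when 1 library was left out and 0 otherwise; genes at an unadjusted p under 0.05 ranged from 870 to 1410, and were 1666 with no filter and 708 with a mean of at least 5 FPKM. The log2 difference of ENSCARG00000022659 turned to 0.179 without deltamethrin replicate 1 and was at its lowest, -3.245, without deltamethrin replicate 2; the settings for the 4 identified members were chosen after seeing the data. The replicate numbers are not said to pair the samples. With the replicate block, 0 genes passed the adjusted threshold and 1114 the unadjusted one. Deviations from group means correlated at 0.01, -0.18 and 0.23 for same-numbered libraries. Only control replicate 3 and deltamethrin replicate 3 correlated best with the library of their own number. Between differently numbered libraries the correlations ran from -0.34 (control replicate 3 with deltamethrin replicate 1) to 0.3 (control replicate 2 with deltamethrin replicate 1). Depth limits the lowest members, 18 of which had fewer than 20 fragments behind the second-highest value.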
